A study of Mus musculus with 6 samples.

Results

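The Obox genes are a family of homeobox genes of the mouse, named for expression in the oocyte. The 5 members described here, Obox1, Obox2, Obox3, Obox5 and Obox6, were taken by gene symbol from a table of 37924 genes, and all 5 were found. Their transcripts were measured by RNA sequencing of whole ovaries at postnatal day 14 from mice of the mixed strain C57BL/6J/129S7/SvEvBrd. All mice had 2 floxed copies of the targeted gene. The 3 control libraries were from mice with no Cre. The 3 conditional knockout libraries, named cKO below, were from mice that also carried Gdf9iCre, a Cre recombinase under the promoter of the oocyte growth factor gene Gdf9. A library pooled 3 ovaries of 3 mice, and the errors below are therefore errors between pools. Gdf9iCre acts in oocytes, and the floxed allele of the somatic cells of the ovary is not its target. The question put to the family was whether its transcript levels differ between cKO and control ovaries.

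Homeobox genes encode transcription factors that bind DNA through a homeodomain. Oocytes build up Obox transcripts while they grow and hand them to the embryo, where OBOX proteins take part in switching on the embryo's own genes. Some members are known chiefly as maternal transcripts, whereas others, Obox3 among them, are known chiefly from the early embryo. In the mouse the genes lie in a cluster on chromosome 7 together with many pseudogene copies.

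The promoters are shown first because all of the family's windows examined share a stretch that no other gene's window held. RefSeq promoter windows (GRCm38.p6, from 250 bases before to 50 bases after each annotated start) were given for 4 of the 5 members and for their paralog Obox7. The lines below are stretches of these windows, 5′ to 3′ on the gene's strand. Capitals mark a run of 25 bases common to all 5 genes and, where held, the letters TATATAAG, a TATA box-like sequence.
Obox1, chr7:15547139-15547253, plus strand: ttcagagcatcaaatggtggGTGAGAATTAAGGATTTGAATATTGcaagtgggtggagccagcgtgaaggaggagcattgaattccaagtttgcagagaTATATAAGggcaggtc
Obox2, chr7:15388830-15388880, plus strand: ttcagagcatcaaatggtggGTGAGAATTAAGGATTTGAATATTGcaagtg
Obox3, chr7:15639792-15639906, minus strand: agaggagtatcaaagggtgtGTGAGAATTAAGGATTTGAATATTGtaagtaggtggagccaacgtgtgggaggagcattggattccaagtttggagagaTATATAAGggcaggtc
Obox5, chr7:15750240-15750354, plus strand: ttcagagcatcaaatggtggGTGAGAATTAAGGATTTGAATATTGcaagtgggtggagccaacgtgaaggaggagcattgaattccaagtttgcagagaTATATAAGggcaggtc
Obox7, chr7:14659604-14659718, plus strand: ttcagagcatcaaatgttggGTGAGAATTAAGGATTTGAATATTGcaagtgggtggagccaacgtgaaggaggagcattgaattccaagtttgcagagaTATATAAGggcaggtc

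The run GTGAGAATTAAGGATTTGAATATTG was held, on either strand, by 5 of 32544 distinct promoter windows (0.0154%), and these were the 5 Obox windows. In Obox1, Obox3, Obox5 and Obox7 it ended 73, 84, 85 and 59 bases before the annotated start. In Obox2 its last 24 bases lay after the start, because RefSeq places the start of Obox2 further upstream relative to the shared stretch, and the window of Obox2 ended before the position of TATATAAG. TATATAAG was held by 4 of the 5 Obox windows and by 1.01% of all windows. It and the shared run were picked after the sequences were seen. The shared run was taken as the longest stretch common to these 5 windows, so its presence in all 5 was set in advance. Among 12-base words, Obox5 shared 73% of its window with Obox7 and 60.6% with Obox1, and Obox3 shared 26% of its window with Obox1.

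Other motifs were searched on both strands of the whole windows. GGATTA, a core bound by homeodomains of the OTX and CRX kind, was held by the Obox3 window and not by the other 4, against 7.06% of all windows. TAATTG and TAATTA, letters bound by the oocyte homeodomain factor NOBOX, were held by 0 of the 5 Obox windows and by 8.01% and 5.29% of all windows. CANNTG, the E-box bound by basic helix-loop-helix factors such as FIGLA and SOHLH1, was held by 4 of the 5, all but Obox3, and by 72.3% of all windows. A match describes letters in these windows and not binding.

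The libraries were estimated to hold 19.6 to 24.9 M fragments (M for 1e6), read from the smallest steps of the values. Of 14934 genes with a mean of at least 0.5 FPKM (fragments scaled to the length of the transcript and the size of the library), 646 passed an adjusted p of 0.05 by limma, of which 334 were higher and 312 lower in cKO. The median log2 change over all genes tested was 0.05. Oocyte genes were readily detected: 19 of 19 oocyte content genes in the table passed the filter, and their summed level was 2024 to 2249 FPKM in control and 2561 to 4064 FPKM in cKO. Granulosa cell markers had a summed level of 3386 to 4349 FPKM in control and 2137 to 2594 FPKM in cKO, with 5 of 10 lower at an adjusted p below 0.05. The other 5 did not pass, and 2 of the 10 had positive log2 changes, Foxl2 with 0.43 and Amhr2 with 0.14. None of the markers listed for oocytes or granulosa cells was at 0 in every library. Of 8 stroma markers Pdgfra and Tcf21 rose, by 0.81 and 0.55 on the log2 scale, with a summed level of 1427 to 1497 FPKM in control and 1447 to 1986 FPKM in cKO. Of 8 immune cell markers the mast cell genes Cpa3 and Tpsb2 rose, by 1.44 and 1.36, and the other 6 did not pass. Of the 8, 6 had positive log2 changes, while Cd68 and Adgre1 had -0.04 and -0.09. In cKO 2, the cKO library with the lowest summed level, Tpsb2 and Cpa3 made up 12.9 and 7.75 of the 45.8 FPKM. The summed level of the immune markers was 30.1 to 43.4 FPKM in control and 45.8 to 380 FPKM in cKO, and in cKO 3 the neutrophil gene S100a9 made up 307 of the 380 FPKM. In such bulk samples a change in the number of oocytes and a change in RNA per oocyte cannot be told apart, and the same holds for granulosa cells. Whether cell makeup changed, and any part of it in the Obox values, was not tested.

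Obox1, Obox2 and Obox5 were expressed in every library, and 0 of these 3 tested members passed the test of cKO against control, where 4.33% of all genes tested did. Obox3 and Obox6 lay under the filter and were not tested. At an unadjusted p below 0.05 there were also 0 of 3, against 24.3% of all genes tested, and the groups overlapped for all 3, whereas they did not overlap for 30% of all genes tested. With 3 members, counts of 0 cannot be told from these shares, so they are not a result about the members. At the estimated depths and with all annotated exons counted as length, the levels of these 3 genes stand for 812 to 2201 fragments per library, so counting error is small beside the spread between pools. The intervals below give the sizes of change that these pools leave possible.

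Obox2 was the most abundant member. It measured 39.5, 49.7 and 57.8 FPKM in control 1 to 3 and 47.0, 39.9 and 59.1 FPKM in cKO 1 to 3. The highest library was a cKO pool, the lowest a control pool, and the groups overlapped over nearly their whole range. The control mean was 49.0 ± 9.17 FPKM and the cKO mean 48.7 ± 9.69 FPKM (SD, n = 3). On the log2(FPKM + 1) scale the change was -0.01 (SE 0.18), with a 95% interval from -0.42 to 0.40 and an adjusted p of 0.979 by limma.

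Obox1 followed the same order of libraries within each group. Its level was 29.5, 33.8 and 37.2 FPKM in control 1 to 3 and 31.2, 23.8 and 42.5 FPKM in cKO 1 to 3. Both the highest and the lowest library were cKO pools, so the cKO range enclosed the control range. The log2 change was -0.08 (SE 0.19), with a 95% interval from -0.53 to 0.38 and an adjusted p of 0.847 by limma. Over the 6 libraries the log2 levels of Obox1 and Obox2 had a Pearson correlation of 0.92, against 0.61 for Obox1 with Obox5 and 0.56 for Obox2 with Obox5. These are descriptions over 6 points that share libraries and, for Obox1 and Obox2, sequence.

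Obox5 had the largest log2 change of the 3. It measured 22.4, 26.1 and 26.0 FPKM in control 1 to 3 and 17.6, 19.8 and 24.3 FPKM in cKO 1 to 3. The libraries cKO 1 and cKO 2 lay below all controls, while cKO 3 lay above control 1, so the groups overlapped. The control mean was 24.8 ± 2.10 FPKM and the cKO mean 20.6 ± 3.44 FPKM (SD, n = 3), a log2 change of -0.27 (SE 0.13) with a 95% interval from -0.57 to 0.03. The adjusted p by limma was 0.244, and the unadjusted p was 0.0678. The negative sign was kept in all 18 alternative fits, with values from -0.64 to -0.17 and adjusted p-values from 0.0508 to 0.516.

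Single libraries moved these values without bringing any member past the threshold. Without cKO 3, which was the highest library for Obox1 and Obox2, the log2 changes of Obox1, Obox2 and Obox5 were -0.28, -0.16 and -0.39, and the adjusted p of Obox5 was 0.103 by limma. Without cKO 2, the lowest cKO library for Obox1 and Obox2, these 2 genes had positive values of 0.12 and 0.12, and Obox5 kept -0.25. Without control 3 the values were 0.00 for Obox1, 0.12 for Obox2 and -0.24 for Obox5. The number in the sample title of cKO 1 is close to those of the 3 controls, and those of the other cKO libraries are further off; what the numbers stand for was not given. Against the 3 controls, cKO 1 alone gave -0.10 for Obox1, -0.04 for Obox2 and -0.48 for Obox5, with an adjusted p of 0.146 for Obox5 by limma on the assumption that cKO pools spread like control pools.

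**Figure D1:**
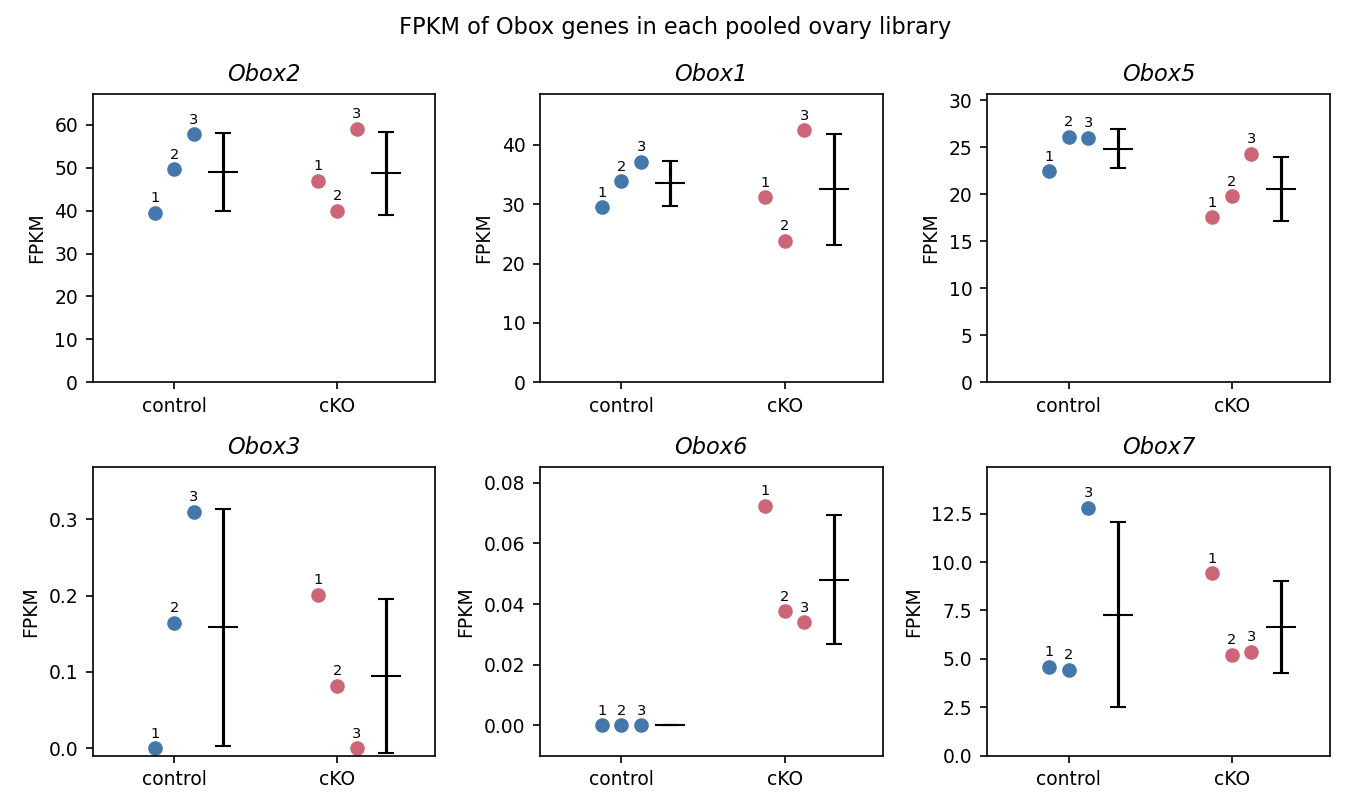
FPKM (vertical axis, each panel with its own scale) of the 5 Obox members and Obox7 in 3 control and 3 cKO libraries; points are libraries with their number and bars are the mean ± SD. Control and cKO points overlap for every gene except Obox6, whose cKO values stand for about 1 or 2 fragments.

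The order of levels was the same in all libraries. Obox2 exceeded Obox1 in 6 of 6 libraries, by 1.34 to 1.68 times in FPKM, and Obox1 exceeded Obox5 in 6 of 6, by 1.20 to 1.78 times. FPKM is scaled to transcript length, which allows this comparison between genes, but the transcript lengths behind the values were not given in the sources used here. The ratio of Obox1 to Obox2 was 0.691 ± 0.0532 in control and 0.660 ± 0.0612 in cKO (SD, n = 3). The ratio of Obox5 to Obox2 was 0.568, 0.526 and 0.450 across control 1 to 3 and 0.374, 0.496 and 0.411 across cKO 1 to 3, with overlapping groups and a two-sided exact permutation p of 0.2 (0.255 adjusted over the 14 ratios computed). The smallest p that 3 libraries against 3 allow is 0.1.

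Obox3 was listed near 0. Its values were 0, 0.165 and 0.310 FPKM in control 1 to 3 and 0.201, 0.0818 and 0 FPKM in cKO 1 to 3. Each group therefore held 1 library at 0, and the highest value was in control 3. Without the filter on low values, the log2 change was -0.08 with an adjusted p of 0.764 by limma.

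Obox6 was listed at 0 in the 3 control libraries and at 0.0725, 0.0376 and 0.0339 FPKM in cKO 1 to 3. The groups did not overlap. Of the genes tested, 18% were higher in cKO without overlap, but that share leaves out genes under the filter such as Obox6. The share among genes under the filter was not computed. With the depth estimates and the 1344 exon bases of its 1 annotated transcript, the cKO values stand for 2.0, 1.0 and 1.0 fragments. Without the filter the adjusted p was 0.233 by limma. No fold change is given against a group listed at 0.

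Obox7, a paralog of the members and 1 of the list of related homeobox genes, is named Gm4745 in the deposited table and was matched by its Ensembl identifier. It measured 4.6, 4.44 and 12.8 FPKM in control 1 to 3 and 9.41, 5.22 and 5.37 FPKM in cKO 1 to 3. Control 3 and cKO 1 were high and the other 4 libraries lay close together, a pattern that crosses the groups. The log2 change was -0.01 (SE 0.37), at an adjusted p of 0.991 by limma. Obox5 exceeded Obox7 in 6 of 6 libraries, by 1.86 to 5.87 times.

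How far the values of single members can be separated depends on shared sequence. In the GENCODE M21 transcripts, 56.4% of the 50-base words of Obox1 also occurred in Obox2, and 62.7% of those of Obox2 occurred in Obox1. Obox1 and Obox2 had 42.6% and 34.9% of their words to themselves, so their split of fragments is uncertain. Obox5 was more distinct, with 81.9% of its words found in no other gene, and Obox6 had 95%. Obox3 had 79.8% to itself, and 18.7% of its words occurred in pseudogenes or in loci with only a Gm name. Whether its few fragments came from such copies was not tested. Obox7 had 17.1% of its words in common with Obox5. The M21 model of Obox1 starts inside Obox2 and shares 59 exon bases with it on the same strand. The word length of 50 was a choice made without knowledge of the read length.

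By RefSeq coordinates on GRCm38.p6 the member genes span chr7:15388851-15398545 (Obox2, plus strand), chr7:15547257-15556846 (Obox1, plus), chr7:15625306-15639777 (Obox3, minus), chr7:15750370-15759274 (Obox5, plus) and chr7:15833250-15839679 (Obox6, minus). Of 55 Obox loci named in M21, 43 were in the deposited table by identifier, 6 of them protein-coding and 37 pseudogene or non-coding loci. Of the latter, 12 were listed at 0 in all libraries, and the highest value of any of them in any library was 0.176 FPKM. Obox1, Obox2 and Obox5 thus stood far above the copies that surround them. Among the 28 Obox4 pseudogene loci, 10 had in cKO 2 a value within 1% of 0.00324 FPKM. At the estimated depth that stands for at most 0.07 of a fragment per locus.

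**Figure D2:**
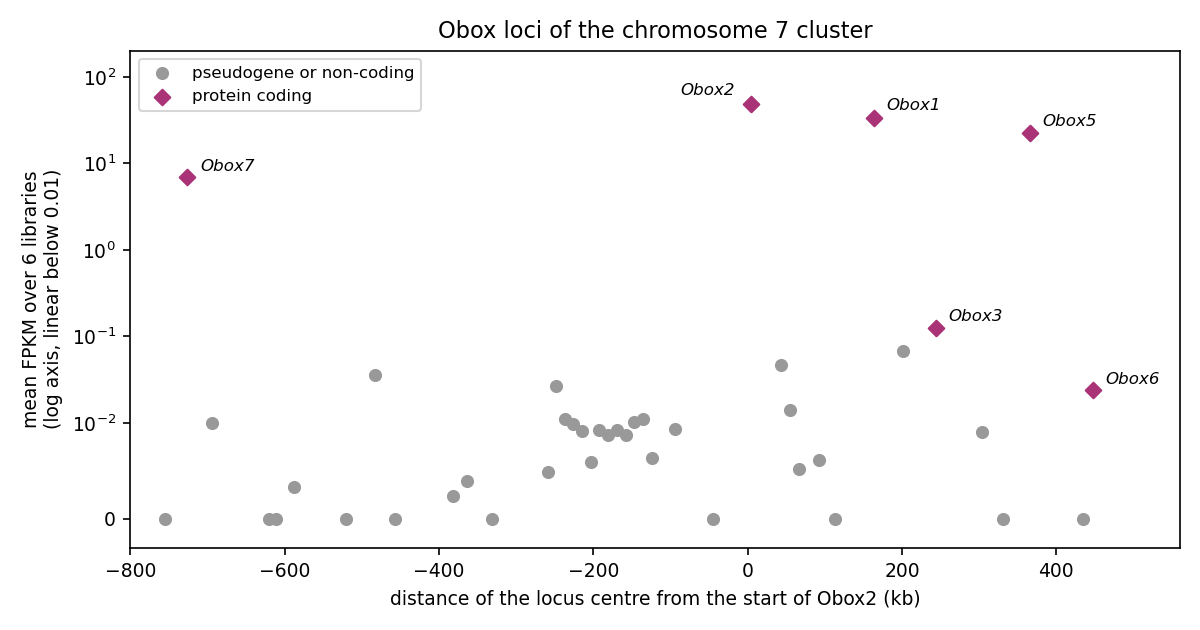
Mean FPKM over 6 libraries (vertical axis, log scale with a linear part below 0.01) of Obox loci on chromosome 7 against the distance of the locus centre from the start of Obox2 (kb). Diamonds are protein-coding genes and grey points are pseudogene or non-coding loci; Obox1, Obox2, Obox5 and Obox7 lie above 1 FPKM and all grey points lie below 0.1 FPKM.

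Genes of the oocyte did not move as a block. Of 19 oocyte content genes, 3 rose (Zp2 and Zp3 of the egg coat, and Padi6 of the complex under the egg surface), 0 fell and 16 did not pass, and their median log2 change was 0.52. The median of the 3 tested Obox members was -0.08. Among 16 tested genes for transcription factors of the oocyte, 2 rose, Sohlh1 and Figla, by 1.43 and 0.98 on the log2 scale at adjusted p-values of 0.0104 and 0.0305 by limma, 14 did not pass, and the median was 0.26. With control 2 or cKO 1 left out 0 of all genes tested were called higher, so that these 5 calls were lost, and with the oocyte content genes as centre Figla, Zp2 and Zp3 had adjusted p-values of 0.0969, 0.0782 and 0.173. Among 18 reference genes 1 fell, B2m, with a log2 change of -0.45, and the median was -0.09. These lists were drawn up with earlier results of these data known.

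The mean log2 level of Obox1, Obox2 and Obox5 was 4.94, 5.18 and 5.30 across control 1 to 3 and 4.93, 4.79 and 5.34 across cKO 1 to 3. Minus the mean of the 19 oocyte content genes in the same library, this was -1.08, -1.01 and -0.83 across the controls and -1.46, -1.42 and -1.5 across the cKO libraries. These differences did not overlap between the groups, whereas the Obox levels did. The mean of the oocyte content genes themselves ran from 6.02 to 6.19 in control and from 6.21 to 6.84 in cKO, also without overlap. The share of all genes whose levels would separate after this subtraction was not computed, so the separation is not a result about the Obox members.

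**Figure D3:**
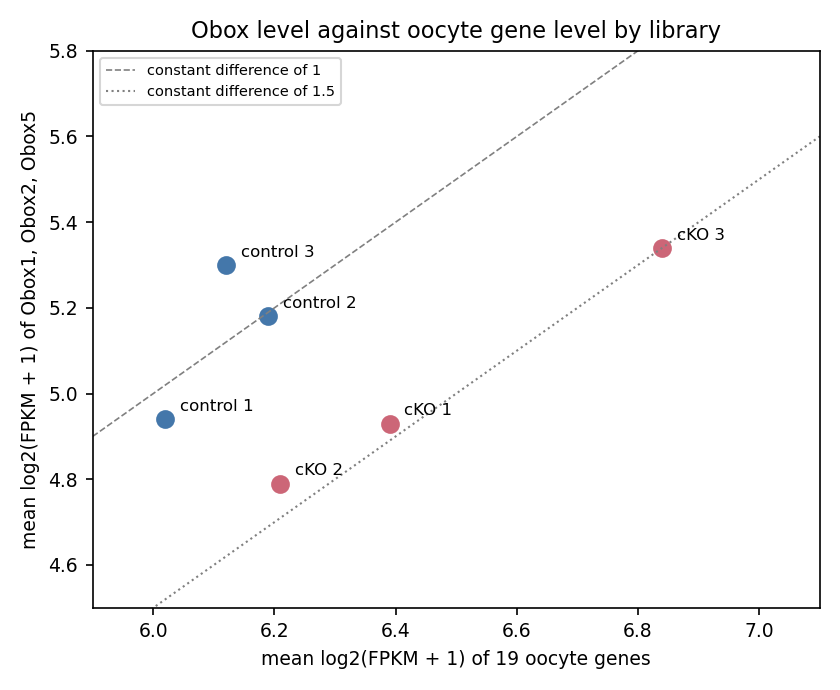
Mean log2(FPKM + 1) of Obox1, Obox2 and Obox5 (vertical axis) against that of 19 oocyte content genes (horizontal axis), 1 point per library; the lines mark constant differences of 1 and 1.5. The cKO points lie near the lower line and the control points near or above the upper line.

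With all libraries centred on the oocyte content genes, Obox5 had a log2 change of -0.64 (SE 0.23) at an adjusted p of 0.0508 by limma, which did not pass. Obox1 and Obox2 had -0.45 and -0.38, with adjusted p-values of 0.17 and 0.227. So 0 of 3 members passed in this fit too, where 8.91% of all genes did, and 3 members are again too few to tell from that share. The centring moved the median of all genes from 0.05 to -0.32, and against the median the differences were -0.32 for Obox5, -0.12 for Obox1 and -0.06 for Obox2, with or without the centring.

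Ratios to single oocyte genes, chosen with the levels known, were also lower in cKO. The ratio of Obox5 to Gdf9 was 0.114, 0.110 and 0.114 across control 1 to 3 and 0.0677, 0.09997 and 0.0709 across cKO 1 to 3. All cKO values lay below all controls, with a two-sided exact permutation p of 0.1, the smallest possible, and 0.233 adjusted over 14 ratios. The ratio of Obox1 to Gdf9 was 0.152 ± 0.0102 in control and 0.121 ± 0.00212 in cKO (SD, n = 3), again without overlap and with the same p-values by the exact test. Gdf9 itself had a log2 change of 0.24, and the share of all genes whose ratio to Gdf9 separates the groups was not computed. The ratio of Obox2 to Gdf9 overlapped, with 0.200, 0.209 and 0.253 across the controls and 0.181, 0.202 and 0.172 across the cKO libraries (exact permutation p = 0.2). The ratios of Obox1, Obox2 and Obox5 to Nobox overlapped too, each with an exact permutation p of 0.2. Against Zp2, a gene that itself rose, the ratio of Obox2 was 0.202 ± 0.0236 in control and 0.107 ± 0.00850 in cKO (SD, n = 3).

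Some oocyte genes had log2 changes like those of the Obox members. Among the oocyte content genes, the linker histone gene H1foo had a control mean of 119 ± 9.47 FPKM and a cKO mean of 117 ± 41.4 FPKM (SD, n = 3). Its log2 change was -0.08, with a 95% interval from -0.58 to 0.42. H1foo measured 94.8 and 90.8 FPKM in cKO 1 and cKO 2, below all controls, and 164 FPKM in cKO 3. Oog1, an oogenesin gene, had a log2 change of -0.26, close to that of Obox5. Bmp15, an oocyte growth factor gene, had the lowest value of the list, -0.67 at an adjusted p of 0.381 by limma. Of the 19 oocyte content genes, 5 had a negative log2 change, as all 3 tested Obox members did. Over all genes tested, 58.5% had a positive log2 change. The 95% intervals of all 3 members included 0, and under other scalings the sign of Obox2 turned.

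**Figure D4:**
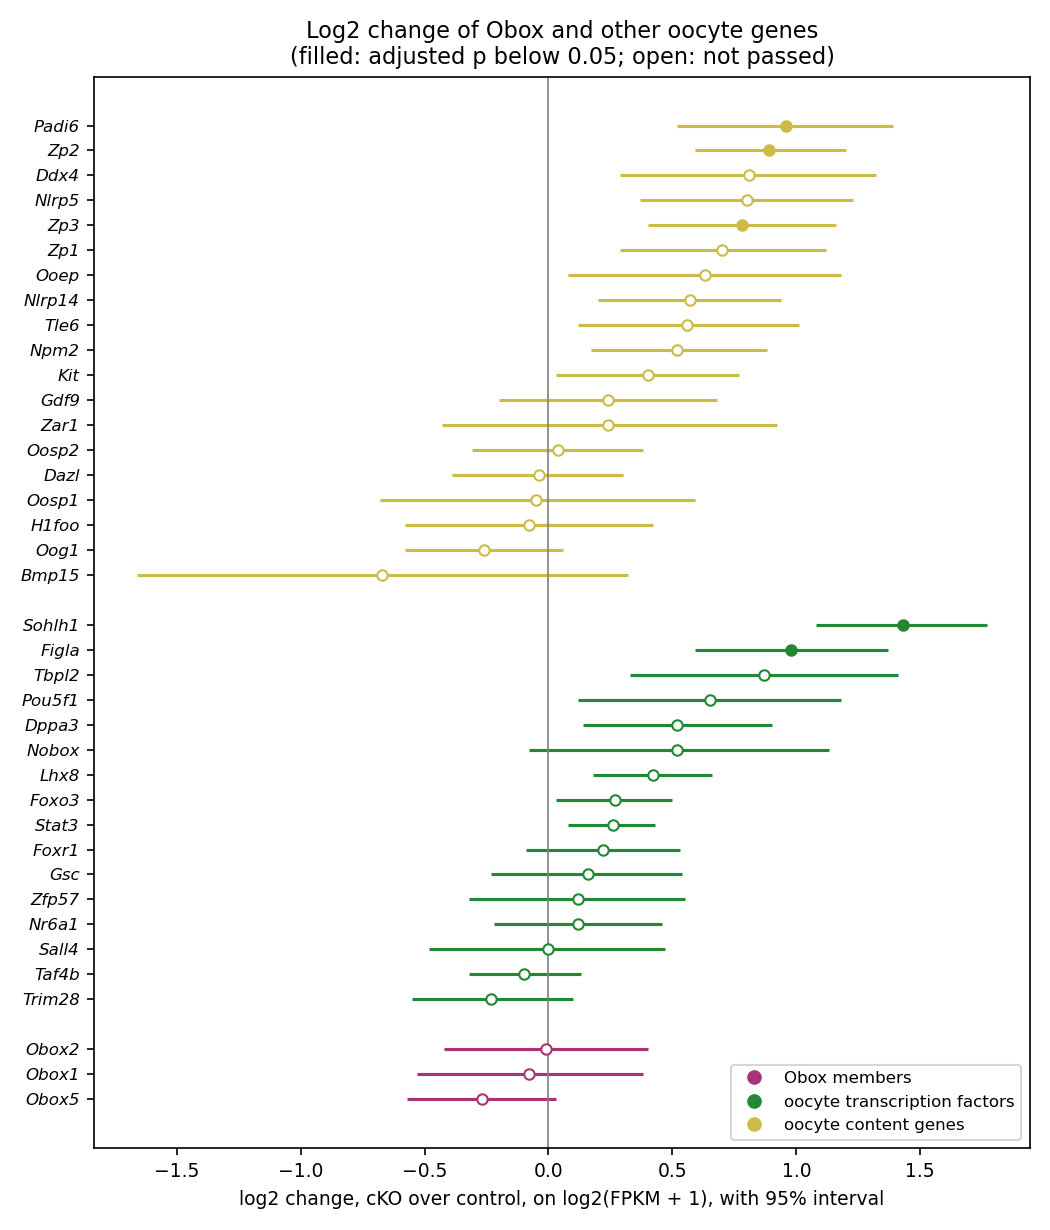
Log2 change of cKO over control (horizontal axis, on log2(FPKM + 1)) with 95% intervals for the tested Obox members, oocyte transcription factor genes and oocyte content genes; filled points passed an adjusted p of 0.05. The Obox points lie at -0.27, -0.08 and -0.01, while Sohlh1, Figla, Padi6, Zp2 and Zp3 are filled and lie to the right of 0.

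Of the related homeobox genes, 6 of 13 in the table were tested and 0 passed. Nobox, a homeobox gene needed for early follicle growth, measured 28.5, 30.5 and 53.5 FPKM in control 1 to 3 and 65.6, 40.2 and 53.6 FPKM in cKO 1 to 3, with a log2 change of 0.52 and an adjusted p of 0.269 by limma. Control 3 lay with the cKO libraries, and the other controls lay below all 3. Pou5f1, a pluripotency factor gene also expressed in growing oocytes, had a log2 change of 0.65 at an adjusted p of 0.139. Over 6 libraries the Pearson correlation with Nobox was 0.35 for Obox1, 0.54 for Obox2 and -0.36 for Obox5, and 0.75 for Obox7. Whether these correlations differ from each other or from 0 was not tested.

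Obox3 and Obox7 shared their libraries of high level with genes known from the 2-cell embryo, in which OBOX proteins act. Zscan4d, a gene of the 2-cell stage, measured 0.316, 0.185 and 3.89 FPKM in control 1 to 3 and 2.33, 1.19 and 0.279 FPKM in cKO 1 to 3. Of 9 such genes tested, 6 had control 3 and cKO 1 as their 2 highest libraries, as did 6.97% of all genes tested. These 6 are related copies of the Zscan4, Tcstv and Usp17l families and do not count as independent genes. Of the 13 that lay under the filter 11 had the same 2 highest libraries, but the share among all genes under the filter was not computed. Of the 9 tested, 0 passed, and their median log2 change was 0.14. The most abundant of the list, Sp110 and Arg2, had log2 changes of 0.58 and 0.11. Over 6 libraries the Pearson correlation with the mean log2 level of these 9 genes was 0.96 for Obox7 and 0.78 for Obox3, against 0.11, 0.38 and -0.27 for Obox1, Obox2 and Obox5. For Nobox it was 0.83, above that of Obox3, so a high correlation was not particular to Obox3 and Obox7. This pattern separated pools of both genotypes, and Obox3 rested on values of at most 0.310 FPKM.

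**Figure D5:**
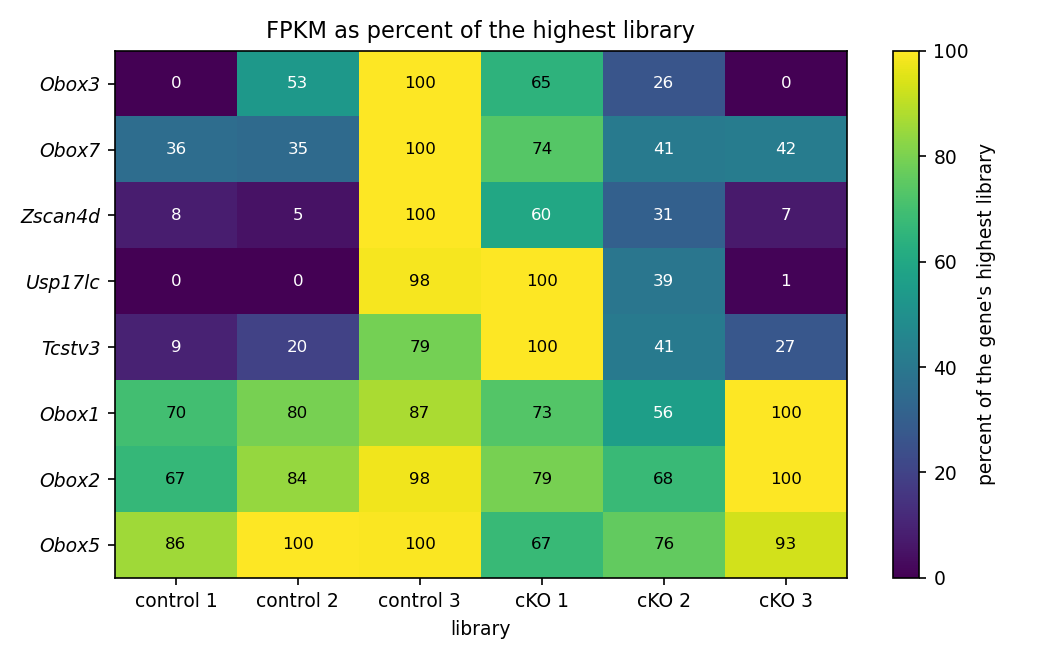
FPKM of Obox genes and of 3 genes of the 2-cell stage in each library, as percent of the gene's highest library (colour and number). Obox3, Obox7, Zscan4d, Usp17lc and Tcstv3 are highest in control 3 or cKO 1, whereas Obox1 and Obox2 are highest in cKO 3 and Obox5 is highest in control 2.

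The genes whose levels were most like the mean log2 level of Obox1, Obox2 and Obox5 over the 6 libraries were Bfar, Naa11, Timm9, Lrrc71 and Dynlt1c, with Pearson correlations of 0.990, 0.985, 0.984, 0.981 and 0.980. Bfar, the closest, measured 25.2, 26.6 and 27.9 FPKM in control 1 to 3 and 24.7, 24.0 and 27.7 FPKM in cKO 1 to 3. Its levels moved over a much narrower range than those of the Obox members. With 6 libraries and 14934 genes such values are a description of these pools.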

How the data were processed

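The authors deposited 1 table of FPKM for 37924 Ensembl genes in 6 ovary libraries, 1 column per pool; its header names no unit, and FPKM is taken from the tool list and the values. The submitters' processing notes list TopHat2 2.0, Cufflinks 2.0 and mm10, without role or order. Annotation, strand setting and any scaling of libraries were not given in the sources used here. Groups came from the genotype label, and replicate numbers follow the order of deposit. The targeted gene is not reported here.

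From the deposited FPKM, log2(FPKM + 1) was fitted with limma 3.58.1 in R 4.3.3 (mean-variance trend) for genes with a mean FPKM of at least 0.5, with Benjamini-Hochberg adjustment over all 14934. "Rose" and "fell" mean an adjusted p below 0.05. Intervals are limma's 95% intervals. Depth was estimated from FPKM below 0.15 in single-transcript genes of at least 1500 exon bases, each read as 1 fragment, with 150 bases taken off the length. Sequences are from RefSeq (GRCm38.p6) and transcripts from GENCODE M21, the assembly of mm10; 1 of the 5 members, Obox6, had no promoter window. Named genes were all members, up to 4 passing genes per list or 2 where none passed, and the 5 genes most like the members' mean; Gdf9, H1foo, Oog1, Bmp15, S100a9, Zscan4d, Usp17lc and Tcstv3 were named after their values were seen. The members and lists were chosen with earlier results of these data known. The fit was tested on simulated data. Alternatives were other pseudocounts, filters, scalings, weights and sets of libraries.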

Additional observations from a re-analysis of the deposited data

How the results depend on the processing

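No Obox member passed in any of 18 alternative fits, with 3 tested members in all but the fit without a filter, which had 5; the smallest adjusted p was 0.0508. Depth limits Obox3 and Obox6, whose values stand for few fragments. The sign of Obox5 held in 18 of 18. That of Obox1 turned positive with array weights (0.019) and ranged from -0.28 to 0.12 with 1 library left out. That of Obox2 turned positive with quantile normalisation (0.008), centred on the reference genes (0.059) and with array weights (0.065), and ranged from -0.16 to 0.12 with 1 library left out.

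The counts over all genes were less stable. With 1 library left out, 0 to 307 genes were higher and 2 to 353 lower. Without a filter 4 were higher and 24 lower, with array weights 1041 and 743, with the oocyte content genes as centre 85 and 1246, with control 3 and cKO 3 left out 204 and 267, and for the 3 controls against cKO 1, where the lone cKO library was assumed to vary as the controls did, 22 and 1. Centred on the median 577 were lower. The cause was not tested. No paired analysis was possible because samples carry no replicate number in the labels.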
